A study of Mus musculus with 8 samples.

Results

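The mitochondrial ribosomal protein genes are the 78 genes, of 12171 in the count table, whose symbols begin with Mrps or Mrpl followed by a digit. They comprise 29 Mrps genes, named for the small subunit of the mitochondrial ribosome, and 49 Mrpl genes, named for the large subunit. All 78 were measured in every mouse, at 367 to 9360 counts per library, and all 78 were tested. Genes of the family with no row in the table are not analysed here.

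RNA was taken from the QUAD (quadriceps) muscle of 8 male C57BL/6 J mice and sequenced with 1 library per mouse. The 4 D-gal + MSCs mice received mesenchymal stromal cells from human umbilical cord, 1000000 cells per mouse injected 6 times at intervals of 7 days, and the 4 D-gal + PBS mice received PBS in place of cells. The injected hind limb muscles were the QUAD, the tibialis anterior and the gastrocnemius, so the sequenced muscle was among them. All 8 mice arrived at 6 weeks of age, had 1 week to acclimatise and were then given D-gal (D-galactose, a sugar used to induce features of ageing) under the skin at 100 mg/kg every day for 12 weeks. The comparison therefore asks what the cells add in D-gal muscle, and no mouse without D-gal was analysed here. Neither group carries a transgene, and D-gal exposure stands in for ageing in both.

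The mitochondrial ribosome translates the few mRNAs of mitochondrial DNA, which encode core subunits of the respiratory chain and ATP synthase. Its RNAs are made inside the mitochondrion, whereas all of its proteins are encoded in the nucleus, made in the cytosol and imported. The small subunit binds the mRNA and reads codons, and the large subunit forms peptide bonds and releases the nascent protein at the inner membrane, which makes these genes of interest in a tissue as rich in mitochondria as muscle.

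Library sizes were 32772221 to 40057968 counts for D-gal + MSCs mice and 34912348 to 39356399 counts for D-gal + PBS mice. Skeletal muscle markers were abundant in every library, at a summed 70780 to 90351 CPM (counts per 1000000 of the scaled library) in D-gal + MSCs mice and 87610 to 112479 CPM in D-gal + PBS mice. D-gal + MSCs replicate 4 stood apart. Its scaling factor was 0.76, against 0.958 to 1.14 in the other 7 libraries, and its 7 slow fibre markers summed to 2449 CPM, against 65 to 406 CPM in the other D-gal + MSCs mice and 54 to 157 CPM in D-gal + PBS mice. Transcripts of mitochondrial DNA made up 22.6% to 36.6% of the counts in D-gal + MSCs mice and 13.9% to 18.6% in D-gal + PBS mice. In bulk muscle, a different share of a cell or fibre type and a different RNA level per cell cannot be told apart.

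The mitochondrial ribosomal protein genes as a whole showed a small difference between the groups that did not exceed the spread between mice. Their median log2 fold change (D-gal + MSCs over D-gal + PBS, from edgeR with TMM scaling, which corrects for library composition) was 0.10, beside 0.00 over all 12171 genes, and scaling by library totals alone turned it to -0.09, where the median of all genes was itself -0.19. Of the 78 genes, 55 (70.5%) had a positive log2 fold change, beside 49.5% of all genes, and with library totals alone 17 did, beside 2845 of all 12171 genes. Both values moved with single mice: without D-gal + MSCs replicate 4 the median was -0.02, with 37 genes positive, and without D-gal + PBS replicate 4 it was 0.19, with 70 positive. The values ranged from -0.28 for Mrps6 to 0.77 for Mrpl14.

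At an adjusted p under 0.05, edgeR called 0 of the 78 genes, as it did 0% of all genes, and the smallest adjusted p among the members was 0.325. DESeq2 and limma-voom also called 0 members, although DESeq2 called 2.46% of all genes. At an unadjusted p under 0.05, edgeR gave 3 members that were higher in D-gal + MSCs mice (Mrps9, Mrps35 and Mrpl14), beside 5.64% of all genes, and 0 that were lower, beside 5.11% of all genes. In either direction 10.7% of all genes were past that threshold in edgeR, so 3 of 78 is a smaller share than the background. DESeq2 and limma-voom gave the same 3 members, beside 12.2% and 10.9% of all genes. In 0 members did the 4 D-gal + MSCs mice all lie on one side of the 4 D-gal + PBS mice, whereas 6.28% of all genes showed such a separation, 3.09% with D-gal + MSCs mice on the higher side and 3.19% with them on the lower side.

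The number of members past the unadjusted threshold depended on single mice. In the fits given here all such members were on the higher side, and the share of all genes on that side stands in brackets. It was 6 when D-gal + MSCs replicate 1 was left out (5.24%) and 5 when D-gal + PBS replicate 4 was (5.5%). It was 1 in the absence of D-gal + MSCs replicate 4 (4.18%) and also 1 in the absence of D-gal + PBS replicate 2 (4.33%). It was 2 when D-gal + MSCs replicate 3 was dropped (5.35%) and also 2 when D-gal + PBS replicate 3 was (5.5%). Leaving out D-gal + MSCs replicate 4 together with D-gal + PBS replicate 2 left 0 members past it (3.39%), with a median log2 fold change over the 78 genes of -0.07. These are the highest D-gal + MSCs mouse and the lowest D-gal + PBS mouse for these genes, so a drop follows from the choice of the pair and says nothing about stability.

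**Figure D1:**
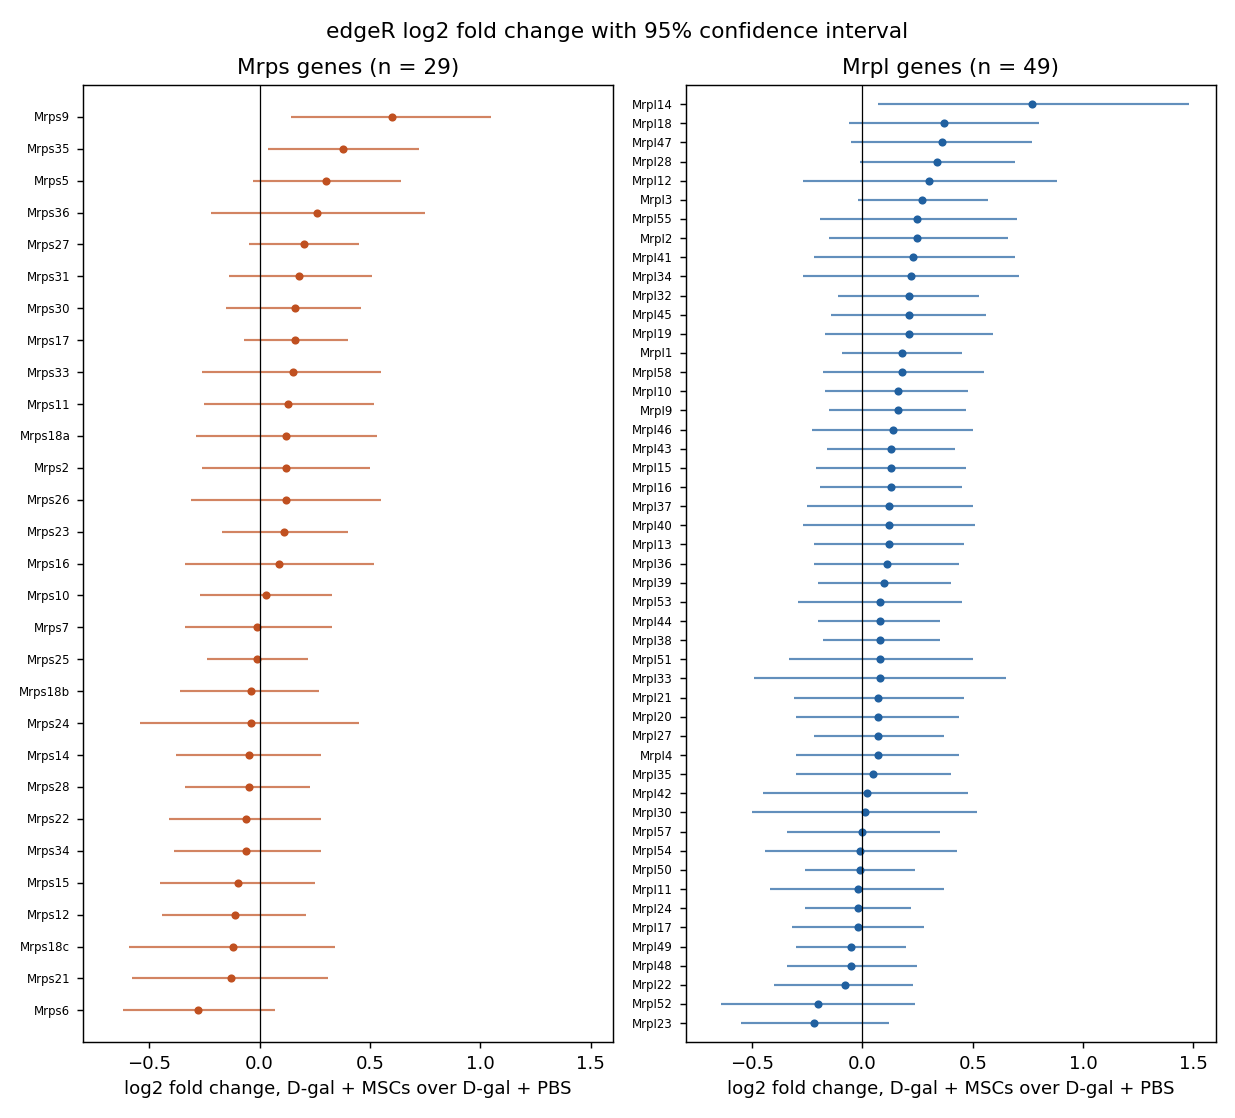
Log2 fold change of each gene (x axis, D-gal + MSCs over D-gal + PBS, edgeR with TMM scaling, n = 4 mice each) for the 29 Mrps genes (left) and the 49 Mrpl genes (right), ordered by value, with bars for the 95% confidence interval. Only Mrps9, Mrps35 and Mrpl14 have intervals that leave out 0. Most points of the Mrpl genes lie to the right of it. With library totals alone most would lie to the left, where only 2845 of all 12171 genes are positive.

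The data limited how large a difference could have gone unseen. The 95% confidence interval of the log2 fold change lay within 0.5 of 0 on both sides for 44 of the 78 genes and within 1 for 76. The median standard error was 0.16 for the members and 0.18 for all genes. Within a group, the median standard deviation of log2 CPM was 0.246 for the members and 0.261 for all genes.

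The medians of the small and large subunit genes were close to each other. The 29 Mrps genes had a median log2 fold change of 0.09 with TMM scaling and -0.10 with library totals alone. The 49 Mrpl genes had 0.11 with TMM scaling and -0.08 with library totals alone. A positive value was found for 16 Mrps genes (55.2%) and 39 Mrpl genes (79.6%) with TMM scaling, beside 49.5% of all genes. With library totals alone these counts were 5 and 12, where only 2845 of all 12171 genes were positive and the median of all genes was -0.19. When genes were sorted by the subunit that holds the protein instead of by symbol, the 26 small subunit genes had a median of 0.01, with 13 positive, and the 51 large subunit genes 0.12, with 41 positive. With library totals alone these medians were -0.18 for the small and -0.07 for the large subunit. This sorting moves Mrps18a and Mrps30, whose products sit in the large subunit of the mammalian ribosome, and sets aside Mrps36, whose product belongs to the 2-oxoglutarate dehydrogenase complex. The genes of a subunit are not independent replicates, so this difference has no test.

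A ratio of the subunits within each library needs no scaling factor. Summed Mrps over summed Mrpl CPM was 0.489, 0.487, 0.485 and 0.452 in D-gal + MSCs replicates 1 to 4, and 0.490, 0.521, 0.506 and 0.479 in D-gal + PBS replicates 1 to 4. The group means were 0.478 ± 0.0176 in D-gal + MSCs mice and 0.499 ± 0.0184 in D-gal + PBS mice (SD, n = 4 each). The ratio was lowest in D-gal + MSCs replicate 4 and highest in D-gal + PBS replicate 2, and the groups overlapped between 0.479 and 0.489.

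What separated the mice was a level shared by both subunits. To compare mice, each gene's log2 CPM was centred on its average over the 8 mice, and the centred values of a list were averaged into a score. For the 78 genes, with TMM scaling, it was -0.21, -0.06, 0.11 and 0.36 in D-gal + MSCs replicates 1 to 4, and -0.01, -0.22, -0.16 and 0.21 in D-gal + PBS replicates 1 to 4. D-gal + MSCs replicate 4 was the highest, D-gal + PBS replicate 4 was next, and the lowest were D-gal + MSCs replicate 1 and D-gal + PBS replicate 2, so both groups spanned most of the range.

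The group means of this score were 0.05 ± 0.25 in D-gal + MSCs mice and -0.05 ± 0.19 in D-gal + PBS mice (SD, n = 4 each), a difference of 0.10 with TMM scaling that became -0.09 with library totals alone. Within D-gal + MSCs mice the scores covered 0.58, several times the difference between the groups. Median-of-ratios factors and TMM factors computed without the genes of mitochondrial DNA left the difference at 0.10.

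The order of the mice held for most single genes. With TMM scaling, 46 of the 78 genes were highest in D-gal + MSCs replicate 4 and 26 in D-gal + PBS replicate 4, which together account for 26 of 29 Mrps and 46 of 49 Mrpl genes. The lowest level was in D-gal + PBS replicate 2 for 29 genes and in D-gal + MSCs replicate 1 for 27. With library totals alone, D-gal + MSCs replicate 4 was highest for only 6 genes and lowest for 16, while D-gal + PBS replicate 4 stayed highest for 26 and D-gal + MSCs replicate 1 was lowest for 43. The number of genes highest in D-gal + MSCs replicate 4 thus depended on the scaling, and that of D-gal + PBS replicate 4 did not. By the score, D-gal + PBS replicate 4 was second with TMM scaling, at 0.21, and highest with library totals alone, at 0.15.

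**Figure D2:**
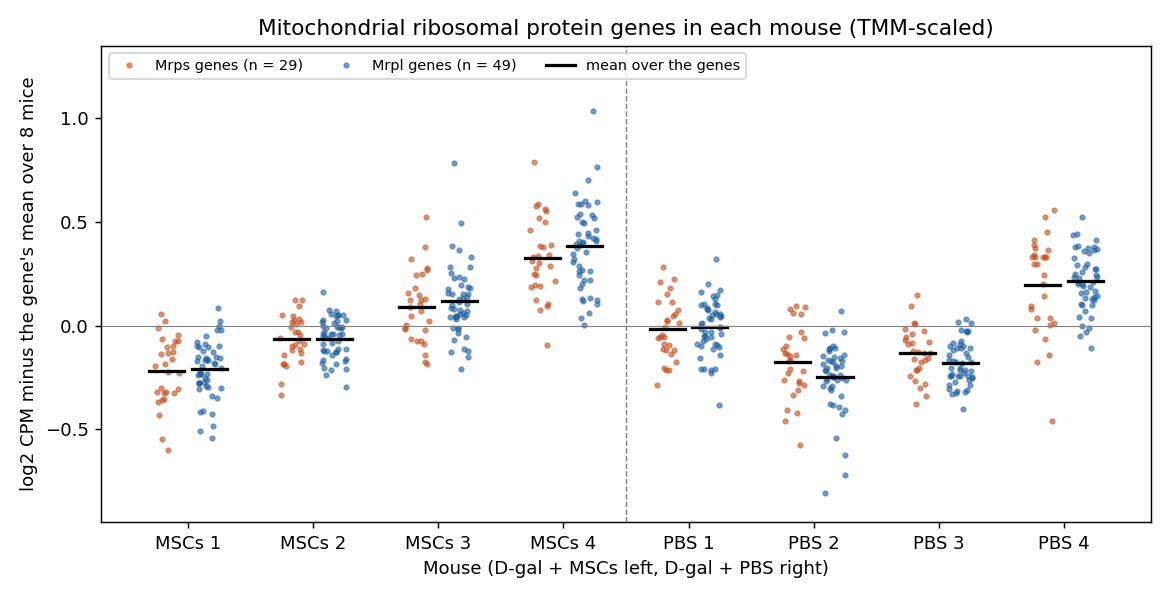
Log2 CPM of each gene minus its own mean over the 8 mice (y axis, TMM scaling) in each mouse (x axis, D-gal + MSCs left), for 29 Mrps and 49 Mrpl genes, with bars at the mean of each set. The bars are highest in replicate 4 of each group and lowest in D-gal + MSCs replicate 1 and D-gal + PBS replicate 2, with the Mrps and Mrpl bars of a mouse close together.

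**Figure D3:**
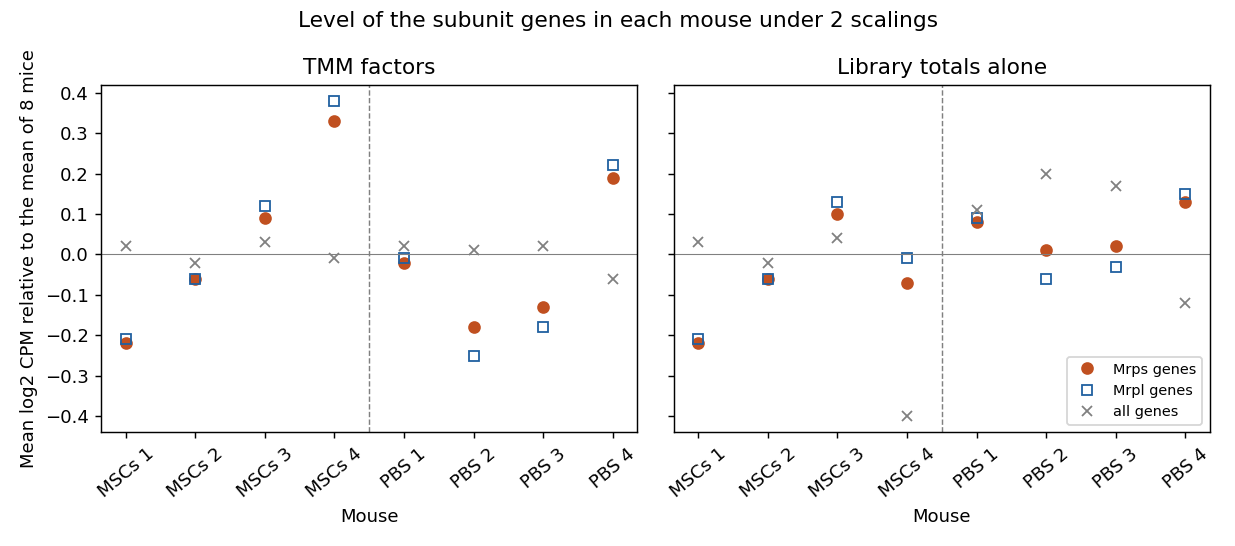
Mean log2 CPM of the Mrps genes, the Mrpl genes and all genes, centred on the average of the 8 mice (y axis), per mouse (x axis, D-gal + MSCs left), with TMM scaling (left) and with library totals alone (right). D-gal + MSCs replicate 4 drops to -0.07 (Mrps) and -0.01 (Mrpl) with library totals, where the mean of all genes in that library is -0.40, against 0.33 and 0.38 with TMM scaling.

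Slow fibre markers followed this order in part. Their score was highest in D-gal + MSCs replicate 4, at 4.92, and lowest in D-gal + PBS replicate 2, at -3.91, the same mice as for the mitochondrial ribosomal protein genes, and it was 1.66 in D-gal + MSCs replicate 3 and 1.02 in D-gal + PBS replicate 1. It was -1.84 in D-gal + PBS replicate 4, where the ribosomal protein genes were second highest. All 7 slow fibre markers had a positive log2 fold change and 1 had an unadjusted p under 0.05, with Myl2 and Tnni1 at 0 counts in at least 1 library. Of the other markers, 3 of 5 fibroblast genes and 1 of 5 erythroid genes were past that threshold on the lower side, and 2 of 4 endothelial genes on the higher side. Fibroblast markers summed to 509 to 1160 CPM in D-gal + MSCs mice and 739 to 1550 CPM in D-gal + PBS mice. Erythroid markers summed to 38.4 to 223 CPM in D-gal + MSCs mice and 180 to 575 CPM in D-gal + PBS mice, and endothelial markers to 304 to 579 CPM in D-gal + MSCs mice and 200 to 440 CPM in D-gal + PBS mice. The part of any of these in the levels of the ribosomal protein genes was not tested.

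Sequences upstream of the genes are shown for the members on which the group comparison turns and for 2 that carry motifs of known regulators of nuclear genes for mitochondria. The RefSeq promoter table (GRCm38.p6, an older build than the GRCm39 used for the counts) had an entry for 69 of the 78 genes. Mrps35 was among the genes without an entry, so its upstream sequence is not shown. The 250 bases before the annotated start are printed 5′ to 3′ on the strand of the gene, with capitals marking the ETS core CCGGAAG, the letters CATGCGC recognised by the factor NRF1 and the YY1 core AAGATGG on either strand.
Mrps9: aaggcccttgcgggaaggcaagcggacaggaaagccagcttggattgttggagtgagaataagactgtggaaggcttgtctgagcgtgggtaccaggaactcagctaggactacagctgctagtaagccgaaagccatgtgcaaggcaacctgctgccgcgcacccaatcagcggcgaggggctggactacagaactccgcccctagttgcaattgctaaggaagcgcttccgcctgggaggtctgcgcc
Mrpl14: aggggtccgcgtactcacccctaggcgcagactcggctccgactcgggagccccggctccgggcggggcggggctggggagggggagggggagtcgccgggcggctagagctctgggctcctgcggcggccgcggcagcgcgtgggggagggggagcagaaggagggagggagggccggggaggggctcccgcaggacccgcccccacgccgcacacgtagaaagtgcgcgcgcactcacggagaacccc
Mrps6: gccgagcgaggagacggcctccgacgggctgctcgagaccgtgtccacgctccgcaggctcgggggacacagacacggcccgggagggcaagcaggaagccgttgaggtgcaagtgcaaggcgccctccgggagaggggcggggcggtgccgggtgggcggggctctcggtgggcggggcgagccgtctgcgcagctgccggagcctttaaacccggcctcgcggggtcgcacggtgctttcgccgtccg
Mrpl3: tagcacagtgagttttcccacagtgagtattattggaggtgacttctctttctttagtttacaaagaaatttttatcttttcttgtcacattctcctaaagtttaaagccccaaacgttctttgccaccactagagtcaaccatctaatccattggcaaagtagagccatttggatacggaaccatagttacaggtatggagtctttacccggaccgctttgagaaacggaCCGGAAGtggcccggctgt
Mrpl32: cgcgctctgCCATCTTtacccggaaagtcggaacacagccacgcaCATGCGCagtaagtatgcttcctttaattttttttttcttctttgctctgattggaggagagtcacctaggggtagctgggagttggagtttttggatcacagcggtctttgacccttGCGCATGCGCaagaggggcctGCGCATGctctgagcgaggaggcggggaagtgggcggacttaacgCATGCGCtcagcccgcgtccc
Mrps9 lies at chr1:42850983-42851232 (+), Mrpl14 at chr17:45686099-45686348 (+), Mrps6 at chr16:92058086-92058335 (+), Mrpl3 at chr9:105053018-105053267 (+) and Mrpl32 at chr13:14613038-14613287 (-). The first 3 hold none of these cores. Mrpl3 and Mrpl32 are the members of smallest p with an ETS core and an NRF1 short site. Mrpl32 has 5 matches to the short site, 2 of them overlapping in the run GCGCATGCGC, and 1 to the YY1 core.

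Across the 69 upstream sequences, the ETS core was found in 17 (24.6%), beside 13.9% of the other genes of the table and 7.05% of all promoters of that length. The NRF1 short site was found in 8 (11.6%), beside 5.88% and 3.32% in those sets, 7 of them in Mrpl genes and 1 in an Mrps gene. The YY1 core was found in 6 (8.70%), beside 4.18% and 4.53%. The CCAAT box, which in the letters CCAAT is short enough to be common anywhere, was found in 36.2% of the members, beside 36.4% and 34.5%. The GC box GGGCGG was found in 47.8%, beside 60.4% and 32.9%, and so was less frequent in the members than in the other genes of the table, and the TATA box TATAAA in 5.80%, beside 6.53% and 13.0%. Genes with the ETS core had a median log2 fold change of 0.09 (17 genes) and those without it 0.11 (52 genes). A match of letters is not a bound site, and 42 of the 69 held none of the 3 cores.

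Mrps9 encodes a protein of the small subunit with a bacterial counterpart, and it had the smallest p of the 78 genes. It was measured at 31.2, 31.5, 48.2 and 58.0 CPM in D-gal + MSCs replicates 1 to 4, and at 29.1, 22.5, 27.9 and 32.1 CPM in D-gal + PBS replicates 1 to 4. D-gal + MSCs replicates 3 and 4 were above all other mice, and the groups overlapped only through D-gal + PBS replicate 4. From this followed a log2 fold change of 0.60 (95% confidence interval 0.14 to 1.05, standard error 0.21, adjusted p = 0.325 in edgeR). Its unadjusted p stayed under 0.05 when each of the 8 mice was left out in turn and with library totals alone, and not when D-gal + MSCs replicate 4 was left out together with D-gal + PBS replicate 2. With library totals alone the log2 fold change was 0.39.

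Mrpl14 encodes a large subunit protein at the face that meets the small subunit, where an assembly factor keeps the subunits apart until the large one is complete. It had 31.9, 36.0, 67.5 and 80.3 CPM in D-gal + MSCs replicates 1 to 4, and 33.5, 22.4, 29.7 and 40.4 CPM in D-gal + PBS replicates 1 to 4. Replicates 3 and 4 of D-gal + MSCs lay above every other mouse and replicates 1 and 2 lay within the D-gal + PBS range. The log2 fold change was 0.77 (95% confidence interval 0.07 to 1.48, standard error 0.31, adjusted p = 0.42 in edgeR), and the unadjusted p stayed under 0.05 in 3 of the 8 fits that left out 1 mouse. An exon of Tmem63b, a membrane channel gene, overlaps Mrpl14 on the opposite strand, and Tmem63b itself had a log2 fold change of 0.23. Whether the counting used strand is not given in the sources used here, so reads of the overlap cannot be assigned with certainty.

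Mrps35 encodes a small subunit protein found in mitochondrial but not in bacterial ribosomes. Its levels were 20.7, 21.6, 25.3 and 30.6 CPM in D-gal + MSCs replicates 1 to 4, and 21.2, 19.4, 19.5 and 15.5 CPM in D-gal + PBS replicates 1 to 4. The groups met only at their edges, since D-gal + PBS replicate 1 exceeded D-gal + MSCs replicate 1. Unlike most members, Mrps35 was lowest in D-gal + PBS replicate 4. Its value from edgeR was a log2 fold change of 0.38 (95% confidence interval 0.04 to 0.72, standard error 0.16, adjusted p = 0.417 in edgeR), and the unadjusted p stayed under 0.05 in 4 of the 8 fits that left out 1 mouse but not with library totals alone, where the value was 0.16. Without D-gal + MSCs replicate 4 it was 0.25.

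At the other end was Mrps6, a small subunit protein with a bacterial counterpart, at 17.0, 19.7, 20.8 and 19.7 CPM in D-gal + MSCs replicates 1 to 4 and 18.1, 21.9, 23.3 and 30.2 CPM in D-gal + PBS replicates 1 to 4. D-gal + PBS replicates 2 to 4 were above every D-gal + MSCs mouse, and D-gal + PBS replicate 1 was not. The log2 fold change was -0.28 (95% confidence interval -0.62 to 0.07, standard error 0.16, adjusted p = 0.559 in edgeR), without D-gal + PBS replicate 4 it was -0.13, and with library totals alone it was -0.45. Mrps6 shares exons with Slc5a3, an inositol transporter gene whose annotated start lies 14 bases away, and Slc5a3 had a log2 fold change of -0.19. Reads in the shared exons cannot be told apart between the 2 genes.

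**Figure D4:**
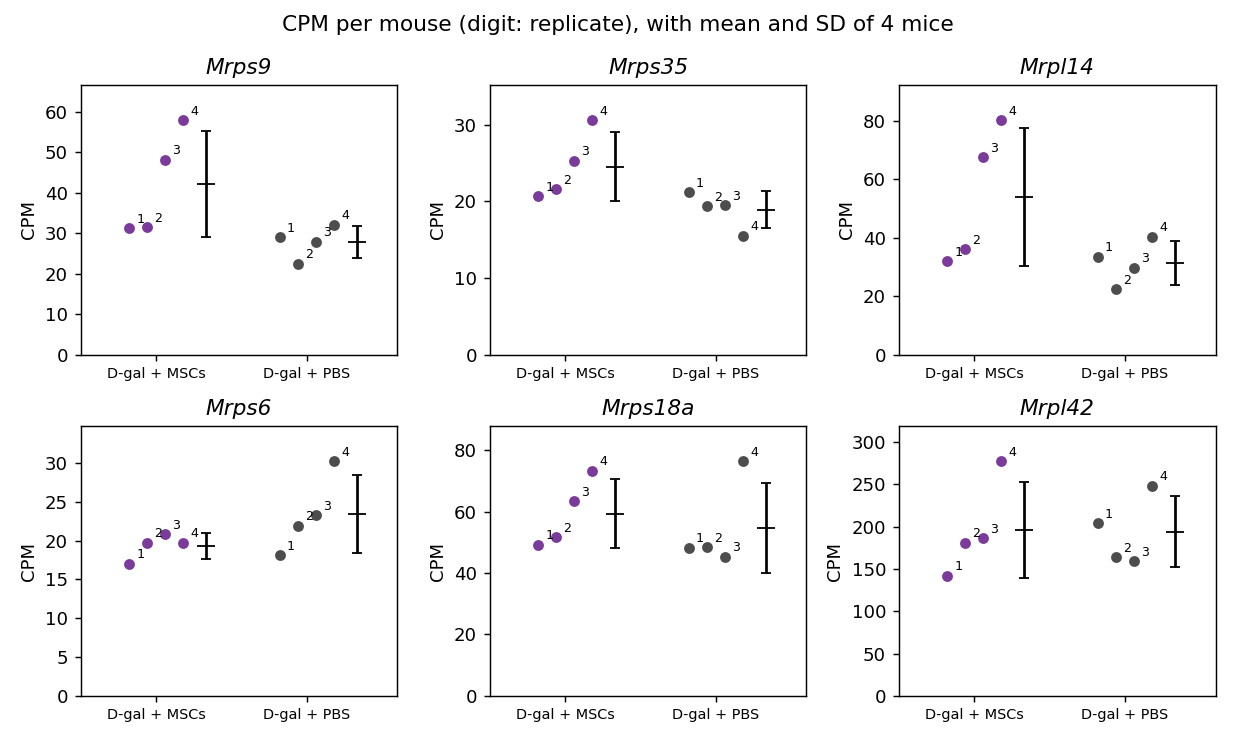
CPM (y axis, TMM scaling, from 0) of 6 genes in each mouse, D-gal + MSCs left and D-gal + PBS right, with the replicate number beside each point and the mean with its SD (n = 4) at the side. Mrps9, Mrps35 and Mrpl14 have higher means in D-gal + MSCs mice and Mrps6 in D-gal + PBS mice, with overlap in each, whereas Mrps18a and Mrpl42 are highest in replicate 4 of each group.

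Among the remaining small subunit genes chosen by p, Mrps5, with a bacterial counterpart near the entry of the mRNA, had 29.8, 31.1, 28.7 and 45.1 CPM in D-gal + MSCs replicates 1 to 4, and 27.3, 24.9, 29.7 and 27.2 CPM in D-gal + PBS replicates 1 to 4. D-gal + MSCs replicate 4 was far above the rest and the other 7 mice overlapped. The log2 fold change was 0.30 (adjusted p = 0.501 in edgeR), with a standard error of 0.15, 0.13 without that mouse and 0.09 with library totals alone. Mrps27, an RNA-binding pentatricopeptide repeat protein, had 32.0, 35.7, 36.5 and 39.8 CPM in D-gal + MSCs replicates 1 to 4, and 31.4, 27.9, 31.7 and 34.3 CPM in D-gal + PBS replicates 1 to 4. The 3 D-gal + MSCs mice other than replicate 1 exceeded all D-gal + PBS mice, and the log2 fold change was 0.20 (standard error 0.12) with TMM scaling and 0.01 with library totals alone. Mrps17 and Mrps31, at 0.16 and 0.18 with TMM scaling, turned to -0.02 and -0.03 with library totals alone.

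Among the large subunit genes, Mrpl28 had 38.9, 46.4, 51.4 and 67.4 CPM in D-gal + MSCs replicates 1 to 4, and 38.7, 37.9, 38.6 and 46.0 CPM in D-gal + PBS replicates 1 to 4. All D-gal + MSCs mice were above 3 of the D-gal + PBS mice, D-gal + PBS replicate 4 lay inside their range, and the log2 fold change was 0.34 (adjusted p = 0.48 in edgeR) with a standard error of 0.16, but 0.18 without D-gal + MSCs replicate 4 and 0.13 with library totals alone. Mrpl3, which reaches toward the peptidyl transferase centre in bacterial ribosomes, had 58.1, 60.0, 62.0 and 81.4 CPM in D-gal + MSCs replicates 1 to 4, and 51.1, 53.1, 49.9 and 62.0 CPM in D-gal + PBS replicates 1 to 4, with a log2 fold change of 0.27 (standard error 0.13), which was 0.15 without D-gal + MSCs replicate 4 and 0.08 with library totals alone. Here again D-gal + PBS replicate 4 alone reached the D-gal + MSCs range.

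Mrpl18, a protein of the central protuberance, and Mrpl47, which lies near the exit of the nascent chain, had log2 fold changes of 0.37 (standard error 0.20) and 0.36 (standard error 0.19). Without D-gal + MSCs replicate 4 these were 0.13 for Mrpl18 and 0.23 for Mrpl47, and with library totals alone 0.16 and 0.17. Mrpl18 stood at 134 CPM in D-gal + MSCs replicate 4 and at 72.1 to 83.2 CPM in the other D-gal + MSCs mice, against 60.3 to 80.9 CPM in D-gal + PBS mice. Mrpl47, at a mean of 27.0 CPM, overlaps exons of Ndufb5 (mean 248 CPM, log2 fold change 0.44) and Actl6a (0.00) on the opposite strand. Mrpl18 overlaps Tcp1 (-0.14) on the opposite strand. Reads of these overlaps cannot be assigned with certainty, since the strand option of the counting is not given. Mrpl32, matured by a protease of the inner membrane before it can join the ribosome, had a value of 0.21 (standard error 0.15), 0.13 without D-gal + PBS replicate 2 and 0.03 with library totals alone. Mrpl1, the protein of the stalk where spent tRNA leaves, had 0.18 with TMM scaling and -0.02 with library totals alone. Mrpl23, which lines the exit of the tunnel, was on the negative side at -0.22 (standard error 0.15), with 44.4 to 49.6 CPM in D-gal + MSCs mice and 44.7 to 71.2 CPM in D-gal + PBS mice. It was -0.05 without D-gal + PBS replicate 4 and -0.39 with library totals alone.

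Some symbols do not describe the place of the protein. The 3 paralogs related to bacterial S18 are encoded by Mrps18a, in the large subunit, and by Mrps18b and Mrps18c, in the small subunit. Mrps18a had 49.2, 51.6, 63.4 and 73.3 CPM in D-gal + MSCs replicates 1 to 4, and 48.2, 48.4, 45.3 and 76.4 CPM in D-gal + PBS replicates 1 to 4, so replicate 4 was the highest of both groups. The log2 fold changes with TMM scaling were 0.12 for Mrps18a (-0.06 with library totals alone), -0.04 for Mrps18b and -0.12 for Mrps18c, each within 1 standard error of 0. Mrps30, whose product is in the large subunit, had 0.16 (-0.04 with library totals alone), and Mrps36 had 0.26 (standard error 0.22), with 39.0 to 73.0 CPM in D-gal + MSCs mice and 36.8 to 61.6 CPM in D-gal + PBS mice. The value of Mrps36 was 0.10 without D-gal + MSCs replicate 4, 0.44 without D-gal + PBS replicate 4 and 0.07 with library totals alone. Mrps36 also has 3 named pseudogenes, whose reads the counting may have split from it.

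Levels were compared between genes as mean CPM per kilobase of transcript over the 8 mice. On this scale the median was 27.2 for the Mrps genes and 32.4 for the Mrpl genes, and the range was 3.21 to 295 over the 78 genes. The highest level was that of Mrpl42, a protein specific to mitochondrial ribosomes, at 295, followed by Mrpl30 at 145, Mrps21 at 122 and Mrpl33 at 119. Mrps36 and Mrps28 came next among the Mrps genes, at 71.9 and 65.7. Over coding length alone Mrpl42 was again the highest, at 458 CPM per kilobase, followed by Mrpl51, chosen after its values were seen, at 329.

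The groups covered similar ranges for the abundant genes. Mrpl42 had 142, 181, 186 and 277 CPM in D-gal + MSCs replicates 1 to 4, and 204, 164, 159 and 248 CPM in D-gal + PBS replicates 1 to 4. D-gal + MSCs mice included both the lowest and the highest value, and the log2 fold change was 0.02 (95% confidence interval -0.45 to 0.48) with TMM scaling and -0.19 with library totals alone. Mrpl30 and Mrpl33, with bacterial counterparts, had 0.01 and 0.08 with TMM scaling and -0.20 and -0.11 with library totals alone. Mrps21 and Mrps28 had -0.13 (95% confidence interval -0.58 to 0.31) and -0.05 (95% confidence interval -0.34 to 0.23).

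Between the most and the least abundant mouse, a member differed by 1.19-fold to 3.59-fold, with a median of 1.63-fold. Mrpl14 was the member with the widest range. Mrps25, chosen after its values were seen, was among the steadiest, at 41.7 to 50.2 CPM in D-gal + MSCs mice and 45.2 to 50.3 CPM in D-gal + PBS mice, with a log2 fold change of -0.01 (95% confidence interval -0.24 to 0.22). In replicate 4 it had 50.2 CPM in the D-gal + MSCs mouse, the highest of that group, and 46.4 CPM in the D-gal + PBS mouse, inside the range of the others.

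The proteins that join the mitochondrial ribosome but carry other symbols gave a like picture. Log2 fold changes were positive for all 5 listed genes with TMM scaling, with a median of 0.18, and for 2 with library totals alone, with a median of 0.00, and 0 of them had an unadjusted p under 0.05 in edgeR. Ptcd3, a pentatricopeptide repeat protein of the small subunit, had 58.0, 64.7, 57.2 and 91.7 CPM in D-gal + MSCs replicates 1 to 4, and 50.1, 50.7, 53.6 and 65.5 CPM in D-gal + PBS replicates 1 to 4, a log2 fold change of 0.30 (standard error 0.16). Gadd45gip1, a large subunit protein, had 0.29 (standard error 0.24). Without D-gal + MSCs replicate 4 these were 0.12 for Ptcd3 and 0.08 for Gadd45gip1, and with library totals alone 0.10 and 0.08.

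Of 12 mitochondrial translation factors, 8 had a positive log2 fold change with TMM scaling, with a median of 0.10, and 4 with library totals alone, with a median of -0.09. With library totals alone the median of all genes was -0.19, which also applies to the lists that follow. In edgeR 2 had an unadjusted p under 0.05 on the higher side, beside 5.64% of all genes, and 0 on the lower side, beside 5.11%, and the counts of the lists that follow stand beside the same shares. Mtif2, the initiation factor that brings the first tRNA, had 17.9, 19.6, 17.2 and 22.5 CPM in D-gal + MSCs replicates 1 to 4, and 15.2, 13.0, 15.4 and 17.0 CPM in D-gal + PBS replicates 1 to 4. Its groups did not overlap, by a narrow margin, and its log2 fold change was 0.35 (adjusted p = 0.409 in edgeR) with a standard error of 0.14, and 0.16 with library totals alone. Gfm1, the elongation factor that moves the ribosome along the mRNA, had 0.39 (standard error 0.16, adjusted p = 0.418 in edgeR), with 105 to 154 CPM in D-gal + MSCs mice and 80.8 to 116 CPM in D-gal + PBS mice. The value of Gfm1 was 0.25 without D-gal + MSCs replicate 4 and 0.19 with library totals alone.

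The next list holds aminoacyl-tRNA synthetases, which charge mitochondrial tRNAs with amino acids, and the amidotransferase genes Gatb, Gatc and Qrsl1. Of its 22 measured genes, 17 had a positive value with TMM scaling, with a median of 0.13, and 7 with library totals alone, with a median of -0.06. With TMM scaling 2 had an unadjusted p under 0.05 on the higher side and 0 on the lower side. Pars2, the enzyme for proline, had 4.76, 4.08, 3.97 and 3.83 CPM in D-gal + MSCs replicates 1 to 4, and 2.80, 2.71, 2.54 and 1.59 CPM in D-gal + PBS replicates 1 to 4. Every D-gal + MSCs mouse exceeded every D-gal + PBS mouse, and the order within the groups was not that of the ribosomal proteins, since replicate 4 was the lowest of both groups. The log2 fold change was 0.79 (95% confidence interval 0.23 to 1.34, standard error 0.25, adjusted p = 0.278 in edgeR). Hars2, the enzyme for histidine, had 0.33 (standard error 0.14, adjusted p = 0.438 in edgeR), and 0.13 with library totals alone.

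Of 26 assembly and rRNA modification factors, 17 had a positive value with TMM scaling, with a median of 0.06, and 3 with library totals alone, with a median of -0.12. With TMM scaling 1 had an unadjusted p under 0.05 on the higher side and 0 on the lower side. Mrm3, which methylates the large rRNA, had 0.46 (standard error 0.20), with 10.7 to 19.9 CPM in D-gal + MSCs mice and 8.42 to 12.4 CPM in D-gal + PBS mice, and its value was 0.28 without D-gal + MSCs replicate 4 and 0.25 with library totals alone. Mterf4, which guides another methyltransferase to the ribosome, had -0.38 (standard error 0.18), with 6.33 ± 0.545 CPM in D-gal + MSCs mice and 8.22 ± 1.49 CPM in D-gal + PBS mice (SD, n = 4 each). Of 9 regulators of nuclear genes for mitochondria, 3 had a positive value with TMM scaling, with a median of -0.06, and 2 with library totals alone, with a median of -0.24. In edgeR 1 was past the unadjusted threshold on the higher side and 0 on the lower side. It was Ppargc1b, a coactivator, at 0.93 (standard error 0.37) with 1.37 to 4.32 CPM in D-gal + MSCs mice and 1.17 to 1.76 CPM in D-gal + PBS mice. Myc, a growth regulator, had -0.68 (standard error 0.32), and -0.31 without D-gal + PBS replicate 3.

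The mRNAs that the mitochondrial ribosome translates had larger fold changes than the genes of the ribosome itself, a difference that was not tested. All 13 mRNAs of mitochondrial DNA had a positive log2 fold change and an unadjusted p under 0.05 in edgeR, with a median of 1.08 (0.85 with library totals alone) and a smallest adjusted p of 0.0756, so 0 passed the adjusted threshold. Summed over these mRNAs, each CPM of mitochondrial ribosomal protein mRNA was matched by 94.9, 69.0, 71.7 and 107 CPM in D-gal + MSCs replicates 1 to 4, and by 50.8, 41.5, 51.7 and 45.0 CPM in D-gal + PBS replicates 1 to 4. This ratio needs no scaling factor, and every D-gal + MSCs mouse lay above every D-gal + PBS mouse. The means were 85.6 ± 18.4 in D-gal + MSCs mice and 47.2 ± 4.85 in D-gal + PBS mice (SD, n = 4 each).

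The nuclear partners of these mRNAs lay between. With TMM scaling the log2 fold change was positive for 79 of 81 nuclear subunits of complexes I to V, 3 (beside 5.64% of all genes) had an unadjusted p under 0.05 on the higher side, and the median was 0.28, against 59 positive and a median of 0.08 with library totals alone. Of 76 cytosolic ribosomal proteins, 5 had a positive value, 3 (beside 5.11% of all genes) had an unadjusted p under 0.05 on the lower side, and the median was -0.15, against 0 positive and a median of -0.34 with library totals alone. The median of the mitochondrial ribosomal protein genes, 0.10 with TMM scaling and -0.09 with library totals alone, therefore stood between that of the nuclear respiratory chain subunits and that of the cytosolic ribosome, and no difference between these lists was tested.

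**Figure D5:**
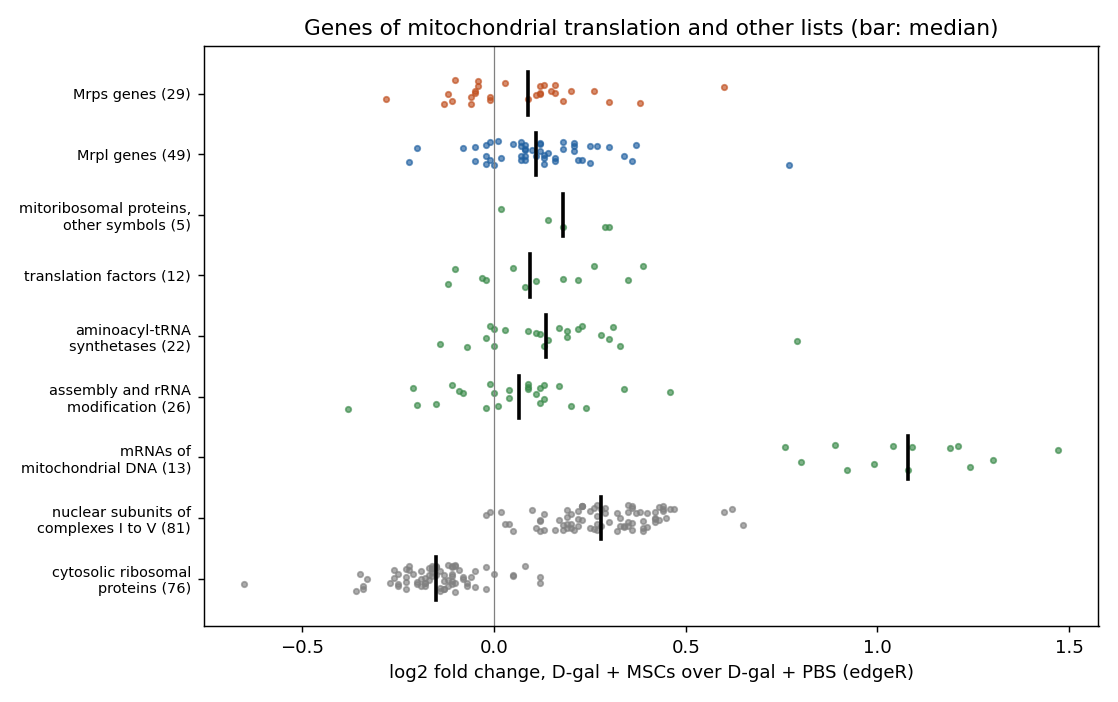
Log2 fold change (x axis, D-gal + MSCs over D-gal + PBS, edgeR with TMM scaling) of each gene in 9 lists (rows, number of genes in brackets), with a bar at each median. The medians are 0.09 for the Mrps and 0.11 for the Mrpl genes, while the 13 mRNAs of mitochondrial DNA lie between 0.76 and 1.47. Library totals alone turn the first 2 medians to -0.10 and -0.08, where the median of all genes is -0.19. The medians of translation factors, of synthetases (listed with 3 amidotransferase genes) and of assembly factors also turn negative.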

How the data were processed

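RNA-seq libraries of QUAD muscle from separate mice, 4 per group, were analysed. The values are raw counts per gene as deposited, in 1 table that the authors made after aligning reads to GRCm39 with HISAT2, version not given. How reads were counted, on which annotation and with what strand option is not given in the sources used here. Counts were fitted in R 4.3.3 with edgeR 4.0.16 (TMM, robust quasi-likelihood fit, group only). The function filterByExpr removed 0 of 12171 genes, and p-values were adjusted over all of them (Benjamini-Hochberg). Intervals are 95% and rest on the fit's standard error. Log2 CPM for scores used a prior count of 2. Promoters are from RefSeq. Transcript lengths and exon overlaps are from GENCODE vM21 (transcript with the longest coding sequence, GRCm38). By it, 33 of the 78 genes overlap an exon of another gene. The fit was tested on simulated data.

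Members, lists and tests were chosen with earlier results of these data known, so no list has a test. Genes named are the 8 Mrps and 8 Mrpl genes of smallest p, the 3 of each with the highest level per length, the Mrps18 paralogs, Mrps30, Mrps36 and, from each list of mitochondrial translation, the 2 of smallest p. Alternatives were DESeq2 1.42.0 (the tool of the study), limma-voom 3.58.1, median-of-ratios factors, library totals alone, no genes of mitochondrial DNA, at least 10 counts in every library, no filter, the replicate number as a block, subunits by protein, and libraries left out. No 2 libraries agreed within sampling noise.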

Additional observations from a re-analysis of the deposited data

Results flagged for a closer look

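In groups of 4 mice, a single mouse far from the other 3 was found in 4 of 78 groups examined, over 39 measures, where chance gives about 1 in 20. Mrps18b had a log2 CPM of 5.44 in D-gal + MSCs replicate 4, against 5.16 to 5.18 in the other D-gal + MSCs mice. The ratio of summed Mrps to summed Mrpl CPM was 0.452 in D-gal + MSCs replicate 4, against 0.485 to 0.489 in the other D-gal + MSCs mice. Mrps18a had a log2 CPM of 6.26 in D-gal + PBS replicate 4, against 5.50 to 5.60 in the other D-gal + PBS mice. Mrpl28 had a log2 CPM of 5.53 in D-gal + PBS replicate 4, against 5.25 to 5.28 in the other D-gal + PBS mice. All 4 values come from a replicate 4, the libraries in which most of the 78 genes were highest.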

How the results depend on the processing

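In edgeR with each alternative, in DESeq2 and in limma-voom, 0 members passed an adjusted p under 0.05. The count higher at an unadjusted p under 0.05 ran from 1 to 6 when single mice were left out, beside 4.18% to 6.37% of all genes. It was 0 without D-gal + MSCs replicate 4 and D-gal + PBS replicate 2 together, beside 3.39% of all genes. With single mice left out, the count lower ran from 0 to 1 (Mrps6, without D-gal + PBS replicate 1, beside 4.12% of all genes). The count lower was 2 (Mrps6 and Mrpl23) with library totals alone, beside 12.9% of all genes. With single mice left out, the median log2 fold change ran from -0.05 to 0.18 for the Mrps genes and from 0.01 to 0.21 for the Mrpl genes, and the Mrps median minus the Mrpl median from -0.08 to 0.00. That difference was -0.11 with subunits by protein, and the Mrps median was -0.12 without both mice named above. Leaving out that pair removes the highest mouse of one group and the lowest of the other, so its lower values follow from the choice. Of 35 named genes, 30 moved by over 1.5 times or changed sign with library totals alone and 22 without D-gal + MSCs replicate 4, against 7 to 11 without any other single mouse. Library totals alone also put the median of all genes at -0.19, against 0.00 with TMM scaling, and every named gene moved in that direction. Of 595 values of 35 named genes under alternatives, 27 changed sign. With library totals alone these were Mrps17 at -0.02, Mrpl1 at -0.02, Mrps31 at -0.03, Mrpl33 at -0.11, Mrpl42 at -0.19, Mrpl30 at -0.20, Mrps18a at -0.06 and Mrps30 at -0.04. Without both mice they were Mrpl33 at -0.28, Mrpl42 at -0.27, Mrpl30 at -0.29 and Mrps18a at -0.05, and in limma-voom Mrpl30 at -0.01. With single mice left out, values ran from -0.25 to 0.00 for Mrps21, -0.13 to 0.01 for Mrps28, -0.10 to 0.24 for Mrpl33, -0.19 to 0.16 for Mrpl42, -0.23 to 0.16 for Mrpl30, -0.13 to 0.08 for Mrps18b and -0.26 to 0.07 for Mrps18c. The cause was not tested.

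The replicate number as a block gave 7 members higher at an unadjusted p under 0.05, beside 7.49% of all genes, and Mrpl30 at -0.02. Same-numbered mice had correlations of their deviations of 0.00, 0.16, 0.10 and 0.22, the last being the largest of any pair across the groups. Differently numbered mice had -0.24 to 0.20, and D-gal + MSCs replicate 1 correlated best with D-gal + PBS replicate 2, at 0.20. Whether equal numbers mark paired mice cannot be told from these values. Over all genes the block gave 78 calls at an adjusted p under 0.05, median-of-ratios factors 7, library totals alone 7, leaving out genes of mitochondrial DNA 7, at least 10 counts in every library 6 and DESeq2 300, against 0 without these changes. With 4 mice per group, the 95% confidence interval reached further than 0.5 from 0 on the log2 scale for 34 members. For these members a difference of over 0.5 was not left out.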

Other observations

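Gabpa, a subunit of the ETS factor that binds the core CCGGAAG, was chosen after its values were seen. It had 45.9, 39.3, 5.01 and 40.7 CPM in D-gal + MSCs replicates 1 to 4, and 37.8, 36.3, 36.1 and 34.6 CPM in D-gal + PBS replicates 1 to 4. The count in D-gal + MSCs replicate 3 was far below those of the other 7 libraries, and whether it gives the level of the gene in that mouse could not be checked from a table of counts per gene.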
